A study of Mus musculus with 12 samples.

Results

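Mineralization and phosphate handling were followed through 8 genes in the hypertrophic zone of the tibial growth plate: Akp2, Enpp1, Ank, Phospho1, Slc20a1, Slc20a2, Mgp and Smpd3. Every probe that the array files name for one of these genes was taken, control spots aside, which gave 12 of the 41174 probes on the array for 8 of its 27962 named genes. Akp2 is the symbol the files use for Alpl. Probes were taken by gene name alone.

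The arrays came from 4 groups of 3 mice, all aged 14 days. Schmid mice were homozygous for Col10a1 p.Asn617Lys, a misfolding mutation in collagen X, and their controls were wildtype mice of that background. Cog mice carried ColXTgcog, a transgene in which the collagen X promoter drives a misfolding mutant of thyroglobulin in hypertrophic chondrocytes, with wildtype mice of the Cog background as controls. Hemizygous and homozygous Cog mice were not told apart. The hypertrophic zone of 1 tibia per mouse was cut out with a scalpel and its RNA was amplified linearly, labelled with Cy3 and hybridized to one single-colour array per mouse, so a lower signal may mean fewer cells of a type or less RNA per cell, which cannot be told apart.

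Cartilage mineralizes when the phosphate around hypertrophic chondrocytes outweighs inorganic pyrophosphate, which blocks the growth of hydroxyapatite. Enpp1 makes pyrophosphate from nucleotide triphosphates outside the cell and Ank carries it out of the cell, while the alkaline phosphatase encoded by Akp2 cleaves it to phosphate. In matrix vesicles, the membrane particles that chondrocytes shed and in which mineral first forms, Phospho1 frees phosphate from phosphocholine, and Smpd3, the neutral sphingomyelinase of cartilage and bone, releases phosphocholine from sphingomyelin. Slc20a1 and Slc20a2 (PiT-1 and PiT-2) take up phosphate with sodium, and Mgp, matrix Gla protein, is a vitamin K-dependent inhibitor of calcification.

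In Schmid hypertrophic zones the mineral inhibitor Mgp, the sphingomyelinase Smpd3 and the alkaline phosphatase Akp2 were lower than in wildtype, with fold changes of -10.4, -3.45 and -2.16 at the brightest probe of each gene (limma, adjusted p of 0.00019, 0.0011 and 0.021). Smpd3 probes 2 and 3 each had a fold change of -1.91 in Schmid and were not called. The Akp2 call held in 18 of 23 alternative settings. In Cog hypertrophic zones none of the 8 genes passed the test. The difference between the mutants passed the test itself for Mgp, for Akp2 and for 1 of the 3 Smpd3 probes.

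The values are normalized log2 intensities, background corrected with normexp and quantile normalized over the 12 arrays, and a difference of 1 on this scale is 2-fold. Levels are compared within a probe only, since probes differ in how brightly they hybridize. A call needed an adjusted p no higher than 0.05 (limma on all 12 arrays, Benjamini-Hochberg over 41174 probes) and a change of 2-fold or more. Of the 12 probes, 9 were well above background on all 12 arrays. Phospho1 was above it on 11 arrays, Slc20a2 probe 1 on 9, and Slc20a2 probe 2 on none.

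Before the values, the state of the arrays bears on all of them. Between 58.9 and 61.8% of spots were well above background on Schmid arrays, against 39.6 to 59.4% on the others. Before correction, the median negative control signal was 202 to 615 on Schmid arrays and 983 to 1210 on their wildtype. It was 1010 to 1900 on the Cog and Cog wildtype arrays, and its part in the differences at dim probes was not tested. The arrays filled 4 slides and were scanned on 2 days. Mutants never shared a slide with the wildtype of their own background, and the effects of slide and genotype cannot be told apart. All 5 markers of hypertrophic chondrocytes were above background in every group. In Schmid, 2 of the 5 were lower, with log2 differences of -3.55 for Ihh and -1.20 for Pth1r, while Col10a1 differed by -0.02 (adjusted p of 0.99). Mmp13 (-1.26) and Panx3 (-0.95) were not called, and the stage of hypertrophy in the dissected tissue was not tested. Markers of other cells moved with the Schmid genotype too. Of those measured, 4 of 7 endothelial, 3 of 5 red cell, 2 of 5 smooth muscle and pericyte, 2 of 8 osteoblast and 1 of 3 proliferative zone markers were lower in Schmid. Of the chondrocyte, osteoclast and perichondrial markers, 0 of 6, 0 of 6 and 0 of 4 were called. Dpt and Col14a1 (perichondrial), Atp6v0d2 (osteoclast) and Pecam1 (endothelial) were not well above background on any array, so they cannot show a change. Col12a1 (perichondrial) was above it on at most 1 array per group. In Cog, Ihh (-1.37) and the osteoblast marker Dmp1 (-1.90) were lower and no other marker was called.

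The probes are 60 bases long, and 3 of them are printed here to show what was hybridized. These were taken as coding from an open frame over the whole probe and knowledge of the proteins, and were not aligned to a transcript. The open frame alone does not single them out, since other member probes have one too. Those of Akp2 and Ank, for example, have 1 and 2 open frames. The Smpd3 probe is the one of its 3 whose genomic match runs over 199 bases, longer than the probe itself, as for a probe across a splice junction. The Phospho1 and Slc20a2 probes are those at the lower edge of detection. All letters are lower case because no stretch is singled out.
Smpd3 probe 3: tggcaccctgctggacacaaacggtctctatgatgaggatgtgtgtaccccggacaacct
Phospho1: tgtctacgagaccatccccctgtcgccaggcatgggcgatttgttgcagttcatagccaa
Slc20a2 probe 1: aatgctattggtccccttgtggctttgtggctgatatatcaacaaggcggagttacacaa

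In the plot of the brightest probes, Mgp, Smpd3, Akp2 and Enpp1 have 3 Schmid points below all 3 points of their wildtype.

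**Figure D1:**
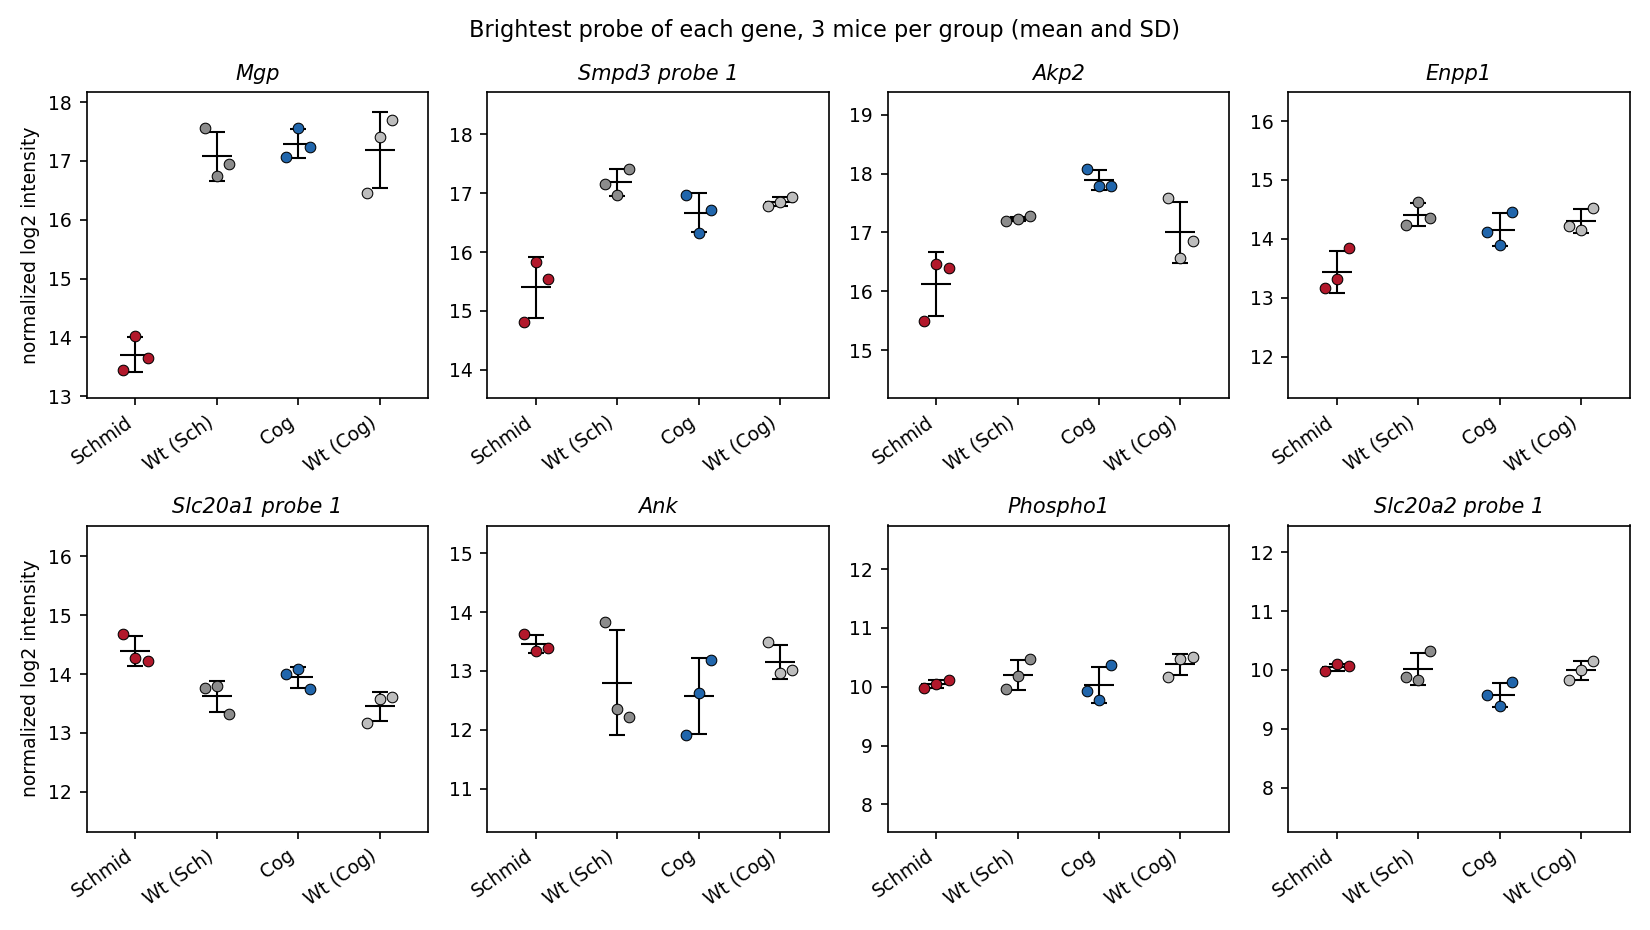
Normalized log2 intensity of the brightest probe of each of the 8 genes, 1 point per mouse, with the mean and SD of each group (n = 3). Every panel spans the same number of log2 units. The 3 Schmid mice lie between 13.44 and 14.03 for Mgp and the other 9 mice between 16.46 and 17.70, and Akp2 lies below its wildtype in Schmid and above it in Cog.

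The inhibitor was the member that differed most. Mgp (probe A_51_P426270, chromosome 6, 136897160 to 136897219, reverse strand, build mm7) read 13.44, 14.03 and 13.65 in the 3 Schmid mice and 17.55, 16.75 and 16.94 in their wildtype. It read 17.07, 17.56 and 17.24 in Cog and 16.46, 17.41 and 17.70 in the Cog wildtype. The lowest of the 9 other mice was thus above every Schmid mouse, and Cog lay within the range of its own wildtype. The Schmid difference was -3.38 on the log2 scale (SE 0.32, 95% interval -4.09 to -2.66), and the Cog difference was 0.10 (interval -0.62 to 0.81, adjusted p of 0.90). The difference between these effects was -3.48 (SE 0.46, limma, adjusted p of 0.0013).

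Mgp in Schmid stayed called in 23 of 23 alternative settings, with differences between -3.64 and -3.14. Mgp is also made by vascular smooth muscle, and the summed signal of 5 smooth muscle and pericyte markers (log2) ran from 16.64 to 16.83 in Schmid, from 17.08 to 17.87 in their wildtype, from 17.20 to 17.88 in Cog and from 17.62 to 18.11 in the Cog wildtype. The sum adds unlogged intensities and so mostly follows Cspg4, the brightest of the 5, which differed by -0.56 in Schmid and was not called. Tagln (-2.45) and Acta2 (-1.51) were called lower, while Myh11 (-0.58) and Rgs5 (-0.56) fell less than 2-fold and were not called. The part of these cells in the Mgp difference was not tested. The spread of Mgp within the Cog wildtype (SD 0.65) was the widest of its 4 groups.

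Among the genes that supply phosphate within matrix vesicles, Smpd3 was measured by 3 probes on chromosome 8, all on the reverse strand (build mm7). Probe 1 (A_52_P478025, 104853755 to 104853814) read 14.82, 15.84 and 15.54 in Schmid and 17.16, 16.97 and 17.42 in their wildtype, against 16.97, 16.32 and 16.72 in Cog and 16.78, 16.85 and 16.93 in the Cog wildtype. No Schmid mouse reached the lowest of the others, and Cog overlapped its wildtype. The Schmid difference was -1.79 (SE 0.25, 95% interval -2.34 to -1.23) and the Cog difference -0.18 (SE 0.25, adjusted p of 0.72). The effects differed by -1.60 (SE 0.36, limma, adjusted p of 0.014), which was lost with both scalings to the 75th percentile (-1.72 and -1.45, adjusted p of 0.083 and 0.056). The Schmid call held in 23 of 23 alternatives, from -2.17 to -1.50.

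The other Smpd3 probes had smaller differences. Probe 2 (A_52_P537545, 104851745 to 104851804) read 16.05, 15.76 and 15.79 in Schmid, 17.48, 16.37 and 16.56 in their wildtype, 16.29, 15.93 and 16.21 in Cog and 17.23, 16.65 and 16.48 in the Cog wildtype. Probe 3 (A_51_P383459, 104856244 to 104856442), whose sequence is printed above, read 11.27, 11.14 and 11.10 in Schmid, 12.59, 11.54 and 12.17 in their wildtype, 11.94, 11.57 and 12.85 in Cog and 12.44, 12.65 and 12.54 in the Cog wildtype. At both probes all Schmid mice lay below all wildtype mice of their background, and at probe 2 this was so for Cog as well. Both differed by -0.93 in Schmid, with an adjusted p of 0.037 for probe 2 and 0.056 for probe 3, which fell short of the 2-fold limit. In Cog they differed by -0.64 and -0.42 (adjusted p of 0.22 and 0.49), and neither difference between the mutants passed (adjusted p of 0.64 and 0.46). Without wildtype replicate 2 of the Schmid background both were called in Schmid, at -1.15 and -1.21 (adjusted p of 0.031 and 0.035).

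Across the 12 arrays the 3 Smpd3 probes correlated with each other by r of 0.63 to 0.72, as a description of arrays that share their groups. All 3 gave the same direction in Schmid, and the probes differed in size from -1.79 to -0.93.

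**Figure D2:**
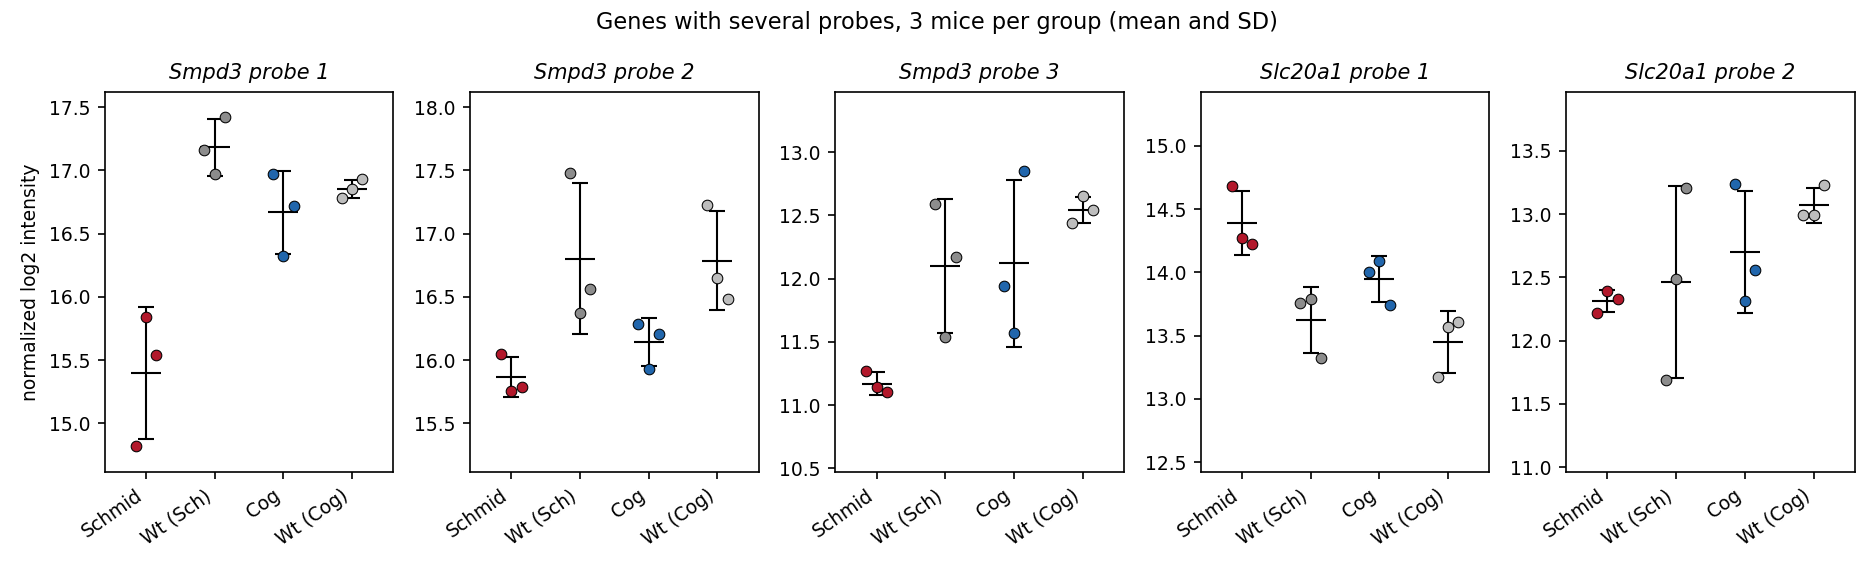
Normalized log2 intensity of the 3 Smpd3 probes and the 2 Slc20a1 probes, 1 point per mouse, with the mean and SD of each group (n = 3) and the same span of log2 units in every panel. All Smpd3 probes are lower in Schmid than in its wildtype, while the Slc20a1 probes do not share a pattern (r of -0.54 over 12 arrays).

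Phospho1 (probe A_51_P149257, chromosome 11, 95939817 to 95939876, build mm7), the phosphatase that acts on the product of Smpd3, was dim. It read 9.98, 10.04 and 10.11 in Schmid and 9.96, 10.18 and 10.47 in their wildtype, and 9.93, 9.78 and 10.37 in Cog against 10.17, 10.47 and 10.50 in the Cog wildtype. The groups overlapped in both comparisons. The differences were -0.16 in Schmid (95% interval -0.56 to 0.24, adjusted p of 0.54) and -0.35 in Cog (-0.75 to 0.04, adjusted p of 0.29), so both intervals leave out a 2-fold change. At this signal, close to background, a difference on the log2 scale understates a change in RNA.

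Of the genes that set the pyrophosphate level, Akp2 (probe A_51_P494125, chromosome 4, 137120184 to 137120243, reverse strand, build mm7) removes it. Akp2 read 15.49, 16.47 and 16.39 in Schmid against 17.20, 17.22 and 17.27 in their wildtype, and 18.08, 17.79 and 17.79 in Cog against 17.58, 16.56 and 16.86 in the Cog wildtype. All Schmid mice were below their wildtype and all Cog mice above theirs. The Schmid difference was -1.11 (SE 0.29, 95% interval -1.76 to -0.47, limma, adjusted p of 0.021). The Cog difference was 0.89 (SE 0.29, interval 0.24 to 1.53), with an unadjusted p of 0.012 in limma and an adjusted p of 0.11, and was not called. The effects differed by -2.0 (SE 0.41, adjusted p of 0.010 in limma), a call that held in 22 of 22 alternatives, between -2.34 and -1.69.

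The Akp2 call in Schmid was less firm than the difference between the mutants. It was lost without Schmid replicate 1 (-0.80, adjusted p of 0.066), whose signal was the lowest of all. It was lost as well without replicate 2 (-1.12, 0.062) or replicate 3 (-1.09, 0.058) of its wildtype. In Cog, Akp2 was called higher without replicate 1 of the Cog wildtype (1.18, adjusted p of 0.040). The osteoblast, another cell with much alkaline phosphatase, had summed markers of 19.07 to 19.53 in Schmid and 19.48 to 20.43 in their wildtype. This sum is carried mostly by the brightest markers, Col1a2 and Col1a1, which differed by 0.01 and -1.23 in Schmid. Of the 8 markers, Col1a1 and Ifitm5 (-1.86) were called lower, and the part of these cells in the Akp2 difference was not tested.

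Enpp1 (probe A_51_P231499, chromosome 10, 24392352 to 24392411, reverse strand, build mm7), which generates pyrophosphate, read 13.16, 13.32 and 13.84 in Schmid against 14.24, 14.63 and 14.36 in their wildtype. It read 14.11, 13.90 and 14.45 in Cog and 14.21, 14.15 and 14.53 in the Cog wildtype. Schmid lay below its wildtype without overlap, and Cog overlapped its wildtype. The Schmid difference was -0.97 (SE 0.21, 95% interval -1.43 to -0.51, limma, adjusted p of 0.0088), past the p limit and just short of 2-fold. It was past both limits without Schmid replicate 3 (-1.17, adjusted p of 0.0061) and without replicate 1 of its wildtype (-1.05, adjusted p of 0.0095). In Cog the difference was -0.14 (interval -0.60 to 0.32). The effects differed by -0.83 with an adjusted p of 0.080, which missed the limit, and passed both limits without Schmid replicate 3 (-1.03, adjusted p of 0.036). This difference was called in 3 of 22 alternatives, which ran from -1.24 to -0.45.

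Ank (probe A_51_P155152, chromosome 15, 27697334 to 27697393, build mm7), the pyrophosphate exporter, read 13.63, 13.34 and 13.39 in Schmid and 13.83, 12.35 and 12.22 in their wildtype. In Cog it read 11.91, 12.62 and 13.19, and in the Cog wildtype 13.49, 12.97 and 13.01. Both mutants overlapped their wildtype, and wildtype replicate 1 of the Schmid background stood 1 unit or more above the other 2 of its group. The differences were 0.65 in Schmid (SE 0.42, adjusted p of 0.27) and -0.58 in Cog (adjusted p of 0.47). Without that wildtype array the Schmid difference was 1.17 with an adjusted p of 0.022, past both limits, and the difference between the mutants was called too (1.75, adjusted p of 0.019). Ank had the widest interval of the brightest probes, -0.28 to 1.59 in Schmid.

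Phosphate uptake was covered by probes for both transporters. Slc20a1 probe 1 (A_51_P408631, chromosome 2, 128952247 to 128952306, build mm7) read 14.68, 14.27 and 14.22 in Schmid against 13.76, 13.79 and 13.32 in their wildtype, and 14.00, 14.09 and 13.74 in Cog against 13.17, 13.57 and 13.61 in the Cog wildtype. Both mutants lay above their wildtype without overlap. The Schmid difference was 0.77 (SE 0.19, 95% interval 0.35 to 1.19, limma, adjusted p of 0.017), under the 2-fold limit. In Cog it was 0.49 (interval 0.07 to 0.91), with an adjusted p of 0.17. This probe lies in row 6 of the 532 rows of the array, and with a smooth trend over the rows removed the Schmid difference became 1.06 (adjusted p of 0.0039), past both limits.

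Slc20a1 probe 2 (A_52_P520507, 128939726 to 128939785) did not share this pattern. It read 12.22, 12.39 and 12.33 in Schmid, 11.69, 12.49 and 13.21 in their wildtype, 13.24, 12.31 and 12.56 in Cog and 12.99, 12.99 and 13.23 in the Cog wildtype. All groups overlapped their wildtype, the differences were -0.15 and -0.37 (adjusted p of 0.78 and 0.57), and its r with probe 1 over the 12 arrays was -0.54. The array does not say which probe reads Slc20a1 better, so the direction of the gene is uncertain.

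Slc20a2 probe 1 (A_52_P504236, chromosome 8, 21349347 to 21349406, build mm7), printed above, read 9.98, 10.10 and 10.06 in Schmid and 9.88, 9.83 and 10.33 in their wildtype. It read 9.57, 9.38 and 9.79 in Cog and 9.83, 10.00 and 10.15 in the Cog wildtype. The Schmid groups overlapped, and the Cog mice were below their wildtype. The differences were 0.03 (adjusted p of 0.89) and -0.41 (adjusted p of 0.17), and only 1 of 3 Cog arrays and 2 of 3 Cog wildtype arrays were above background. Slc20a2 probe 2 (A_52_P229044, 21353939 to 21353998) did not rise well above background on any of the 12 arrays, and no fold is given for it.

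Counted over the 12 probes, 0 were called higher and 3 lower in Schmid (Mgp, Smpd3 probe 1 and Akp2), where 5.78% of all 41174 probes were higher and 4.69% lower. At the adjusted p alone, 1 was higher and 5 lower, against 10.6% and 13.3% of all probes. At 6 probes every Schmid mouse was below its wildtype and at 1 above, where 26.1% and 19.3% of all probes were so separated. Over all probes the 2380 higher and 1930 lower calls became 1420 to 3683 and 1407 to 2692 when 1 array was left out, with 1509 higher without Schmid replicate 1, 1420 without wildtype replicate 2 and 3683 without wildtype replicate 1. The median difference of the 12 probes in Schmid was -0.55, and that of all probes -0.06.

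In Cog the test called 0 of the 12 probes in either direction, against 2.31% of all probes. At an unadjusted p up to 0.05, 4 probes differed in Cog, where 21.3% of all probes did (limma). Groups did not overlap at 2 probes above and 2 below wildtype, against 16.4% and 13% of all probes. The 644 higher and 308 lower calls over all probes in Cog became 198 to 764 and 105 to 581 when 1 array was left out. Higher calls were 400 without Cog replicate 1, and higher and lower calls were 198 and 105 without wildtype replicate 2 and 345 and 138 without wildtype replicate 3, while 581 were lower without wildtype replicate 1. The Cog median was -0.27, and that of all probes 0.

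The difference between the mutants was called at 3 of 12 probes, all with the Schmid effect below that of Cog, where 5.88% of all probes were called in that direction. The wildtype groups of the 2 backgrounds gave 0 called probes among the 12 by limma, 0 at an unadjusted p up to 0.05 (14.1% of all probes), and 0.469% of all probes were called. Their groups did not overlap at 1 probe, Smpd3 probe 1, where the Cog wildtype was below, against 9.52% of all probes.

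**Figure D3:**
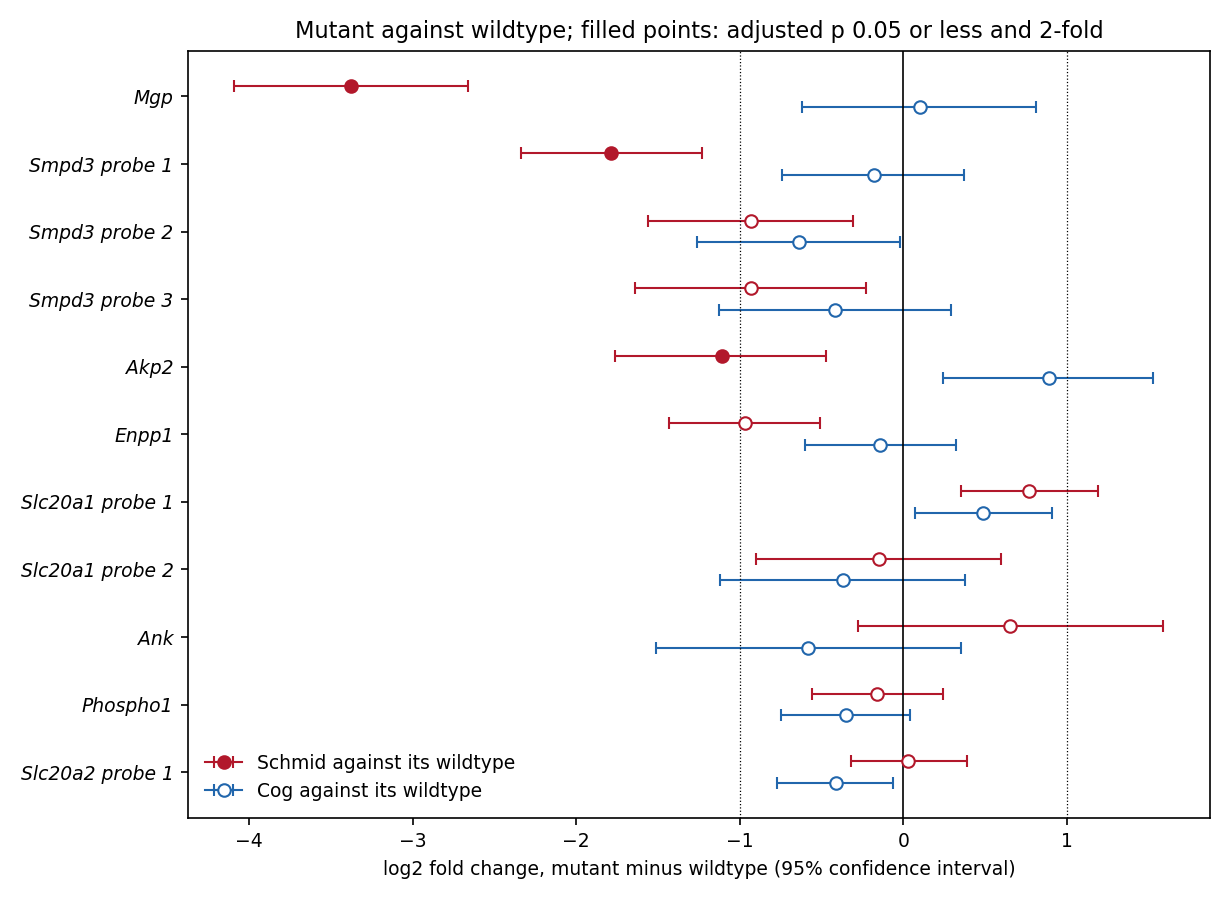
Log2 fold change of 11 probes in Schmid and in Cog against the wildtype of each background, with 95% confidence intervals from limma (n = 3 mice per group). Filled points passed the adjusted p and the 2-fold limit, dotted lines mark 2-fold, and Slc20a2 probe 2 is left out as not above background. The Akp2 intervals of Schmid (-1.76 to -0.47) and Cog (0.24 to 1.53) lie on either side of 0.

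Over the 12 arrays, and as a description only, the brightest probes of Mgp and Smpd3 correlated by r of 0.88, Enpp1 and Smpd3 by 0.86, and Slc20a1 and Smpd3 by -0.84. With the group means removed these were 0.21, 0.32 and -0.58, so most of the first and second lay between groups. The arrays of 3 of the 4 groups each lay on 1 slide. Among 12807 probes above background on all arrays, the genes most like Mgp were Plk2 (r of 0.983 over 12 arrays), Chad (0.965) and Pla2g10 (0.962, with Tcf7l2 level at this rounding). Most like Smpd3 were Col11a2 (0.962), Dap3 (0.958) and Deaf1 (0.952). Most like Akp2 were Adcy6 (0.958), an expressed sequence tag without a gene name (0.950) and Adat1 (0.944).

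A wider set of 75 genes around mineral and phosphate, in 5 lists, was measured for 72 genes at the brightest probe of each. Sgms2, Fam20c and Bglap2 had no probe under the names searched. In Schmid, 9 of the 72 were higher and 11 lower, where 5.8% and 5.75% of all genes were called at their brightest probe. In Cog, 1 was higher and 1 lower, against 1.89% and 0.837%. All values below are from limma with Benjamini-Hochberg adjustment over all probes.

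The list closest to the members holds 26 genes of phosphate and pyrophosphate handling. In Schmid 3 were higher, 4 were lower and the median was -0.18, against -0.09 over all genes. Enpp2 (autotaxin, which makes lysophosphatidic acid) fell from 15.68 ± 0.80 to 13.05 ± 0.30 (mean ± SD, n = 3), a difference of -2.63. Entpd3, an ectonucleotidase, fell by 2.20, the alkaline phosphatase Akp5 fell by 1.60 and the pyrophosphatase Ppa1 fell by 1.08 (adjusted p of 0.0011, 0.00028 and 0.028). Entpd3 and Akp5 were dim in Schmid, at 10.02 ± 0.24 and 9.84 ± 0.14, though above background on 3 of 3 arrays. Nt5e (CD73, which makes adenosine and phosphate from AMP) rose from 12.24 ± 1.32 to 14.73 ± 0.06, Entpd5 rose by 1.18 and Enpp4 by 1.15 (adjusted p of 0.016, 0.045 and 0.017).

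Some of these calls rested on single arrays. Nt5e was lost without wildtype replicate 2 (2.00) or 3 (2.22), and Enpp4 without Schmid replicate 1 (1.02) or wildtype replicate 3 (0.91). Ppa1 was lost without any one Schmid mouse or wildtype replicate 1 or 3 (-1.19 to -0.77), and Entpd5 in 9 of 12 omissions of 1 array (0.94 to 1.31, adjusted p up to 0.16). In Cog 0 of the 26 genes were called and 8 differed at an unadjusted p up to 0.05, where 22.6% of all genes did at their brightest probe, among them Entpd5 at -1.25 and Enpp2 at -1.15. Akp5 (-2.01), Enpp2 (-1.49) and Entpd5 (2.43) differed between the mutants with an adjusted p of 0.00087, 0.049 and 0.013. The Enpp2 difference was lost in 9 of 12 omissions of 1 array (-1.65 to -1.36, adjusted p of 0.056 to 0.10) and called in 9 of 22 alternatives in all.

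Sphingomyelin and phosphocholine metabolism, which feeds Smpd3 and Phospho1, had 4 of 15 genes higher in Schmid and 0 lower, with a median of 0.15. The choline kinases Chka and Chkb rose by 1.64 and 1.29, and Pcyt1a, an enzyme of phosphatidylcholine synthesis, rose by 1.39 (adjusted p of 0.0070, 0.042 and 0.0012). Smpd1, the acid sphingomyelinase of lysosomes, rose from 14.22 ± 0.40 to 15.47 ± 0.22, a difference of 1.25 (adjusted p of 0.0021), where Smpd3 fell. Chkb was lost in 9 of 12 omissions of 1 array (1.01 to 1.39). In Cog, Chka rose from 10.22 ± 0.53 to 12.43 ± 0.59, by 2.21 (adjusted p of 0.0084), with 2 of 3 wildtype arrays above background, and it was the only one of the 15 called. Pcyt1a (1.35) and Smpd1 (1.47) differed between the mutants (adjusted p of 0.010 and 0.0077).

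**Figure D4:**
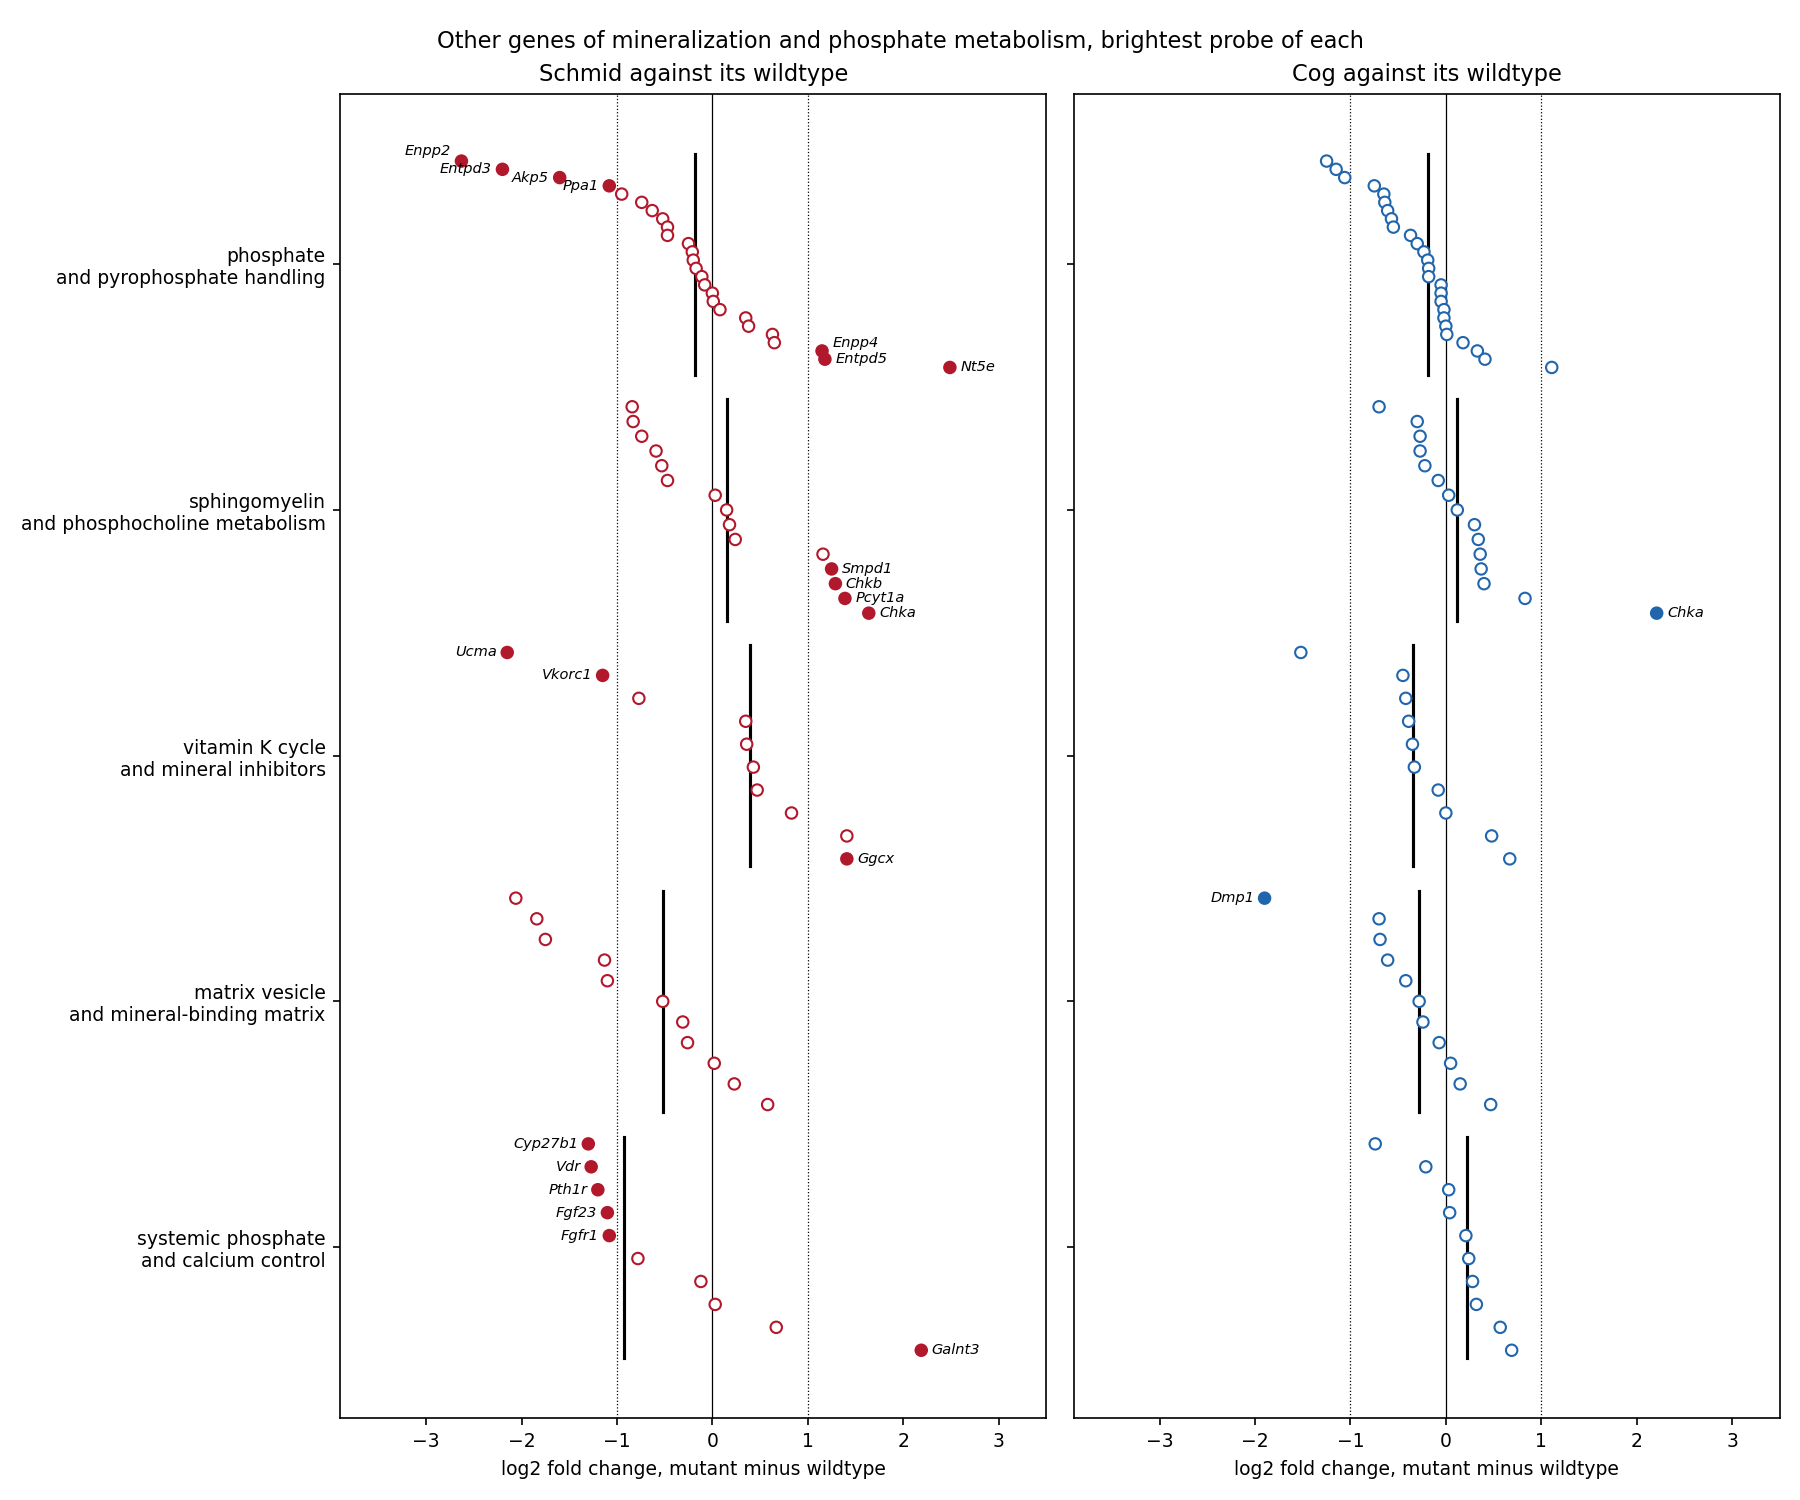
Log2 fold change of 72 genes in 5 lists at the brightest probe of each, for Schmid and for Cog against the wildtype of each background (n = 3 mice per group). Filled and named points passed the adjusted p and the 2-fold limit, bars are list medians and dotted lines mark 2-fold. Schmid has 20 named genes and Cog has 2, Chka and Dmp1.

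The vitamin K cycle, on which the activity of Mgp depends, and the other mineral inhibitors had 1 of 10 genes higher and 2 lower in Schmid, with a median of 0.40. Ucma, a Gla protein of cartilage, fell from 16.48 ± 0.57 to 14.33 ± 0.26, a difference of -2.15 (adjusted p of 0.0073), and Vkorc1, which recycles vitamin K, fell by 1.15 (adjusted p of 0.0019). Ggcx, the carboxylase itself, rose by 1.41 (adjusted p of 0.044), with only 1 of 3 wildtype arrays above background, and was lost in 8 of 12 omissions of 1 array (1.09 to 1.47). In Cog 0 of 10 were called and 3 differed at an unadjusted p up to 0.05, where 22.6% of all genes did at their brightest probe. Ahsg was among the 3, though above background on 0 of 3 arrays of every group. Ucma differed between the mutants by -2.07 with an adjusted p of 0.048, which was lost in 10 of 12 omissions (-2.27 to -1.77).

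Of 11 genes of matrix vesicles and mineral-binding matrix, 0 were called in Schmid, 6 differed at an unadjusted p up to 0.05 (40.4% of all genes at their brightest probe), and the median was -0.52. Bone sialoprotein Ibsp was 13.79 ± 0.01 in Schmid and 15.85 ± 0.83 in their wildtype (adjusted p of 0.063). In Cog, Dmp1, an acidic phosphoprotein of bone matrix, fell from 15.29 ± 0.45 to 13.39 ± 0.49, a difference of -1.90 (adjusted p of 0.044). This call was lost in 9 of 12 omissions of 1 array (-2.11 to -1.63), so it sits at the threshold. Annexin Anxa5 differed by -0.70 in Cog, past the p limit (0.024) and under 2-fold.

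Systemic control of phosphate and calcium had 1 of 10 genes higher and 5 lower in Schmid, with a median of -0.93. Galnt3, the glycosyltransferase that protects Fgf23 from cleavage, rose from 10.94 ± 0.26 to 13.14 ± 0.19, by 2.19 (adjusted p of 0.00020). Cyp27b1, which makes active vitamin D, fell by 1.30, the vitamin D receptor Vdr fell by 1.27, the parathyroid hormone receptor Pth1r fell by 1.20, and Fgf23 and its receptor Fgfr1 fell by 1.10 and 1.08 (adjusted p of 0.0013, 0.027, 0.0016, 0.00039 and 0.0030). Cyp27b1 was above background on 1 of 3 Schmid arrays and Fgf23 on 2 of 3. Fgfr1 cleared it on 3 of 3 Schmid arrays but was dim there too, at 9.56 ± 0.01. Vdr was lost in 5 of 12 omissions of 1 array (-1.38 to -1.07), and Fgf23 (-0.99) and Fgfr1 (-0.88) were under 2-fold without wildtype replicate 2. In Cog 0 of 10 were called and 3 differed at an unadjusted p up to 0.05, where 22.6% of all genes did at their brightest probe. Casr was among the 3, though above background on 1 of 3 Cog and 0 of 3 Cog wildtype arrays.

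The plot of alternative settings gathers how the Schmid values of the members moved. Mgp and Smpd3 probe 1 stayed past both limits throughout, and Akp2, Enpp1, Slc20a1 probe 1 and the other Smpd3 probes lay around the 2-fold limit.

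**Figure D5:**
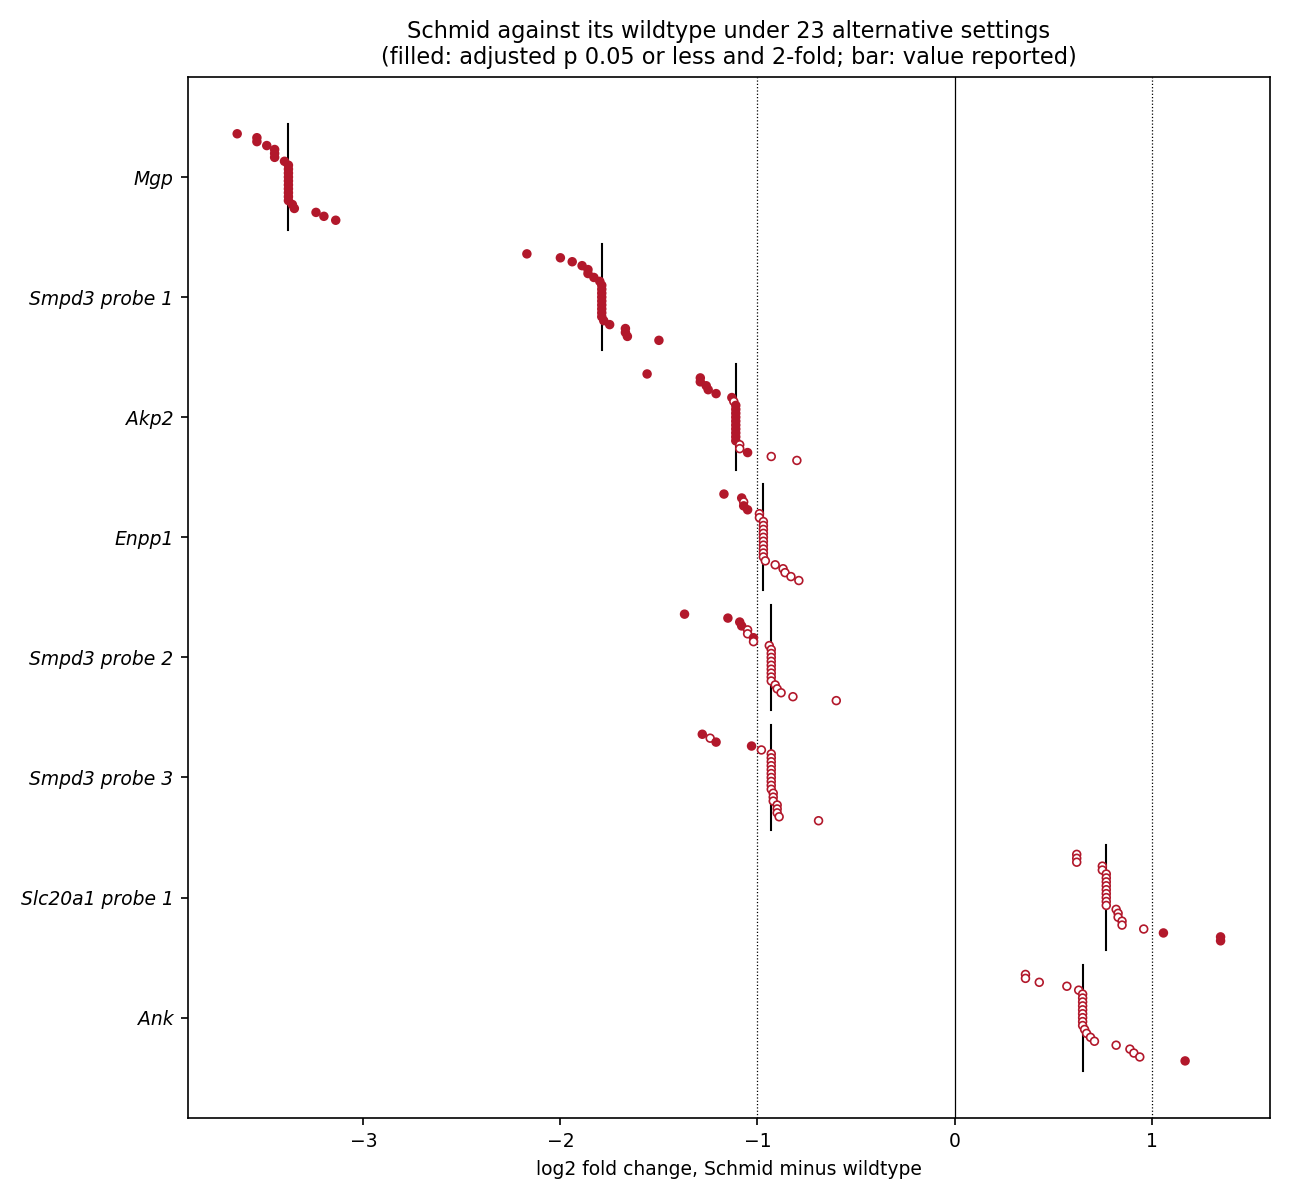
Log2 fold change of 8 member probes in Schmid against wildtype under 23 alternative settings, 1 point each, with the reported value as a bar and dotted lines at 2-fold. Filled points passed the adjusted p and the 2-fold limit. Mgp lies between -3.64 and -3.14 and is filled throughout, and Akp2 lies between -1.56 and -0.80 and is filled in 18 of 23.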

How the data were processed

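Amplified RNA of the hypertrophic zone from 12 mice was measured on single-colour arrays. The authors deposited scanner output of Agilent Feature Extraction 9.5.3 (per the submitters' processing notes), with the foreground and background intensity of 45018 spots per array, not normalized between arrays, and a series matrix of log2 values after normexp and quantile normalization. The deposited log2 matrix correlated with the values made here by 0.99987 to 0.99996 per array and served as an alternative.

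Mean signal and median local background were corrected with normexp (offset 50), spots marked as non-uniform or outliers and control spots were removed, and values were quantile normalized, with repeated spots of a probe averaged. Group means were fitted with limma on all 12 arrays (8 residual degrees of freedom), with Benjamini-Hochberg adjustment over 41174 probes. The fits used limma 3.58.1 in R 4.3.3, and the scripts were tested on simulated data. Quantile normalization forces equal distributions, so changes are relative to the bulk of probes, and the number of arrays limits the precision.

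Groups were taken from the sample titles. Named were all member probes, each gene of the 5 wider lists called in a mutant at its brightest probe, and the 3 genes most correlated with each called member. The members and lists were chosen with earlier results of these data known. Gene names, probe sequences and coordinates are those of the array files (build mm7), and probes were not aligned again. Alternatives changed the signal, scaling, filter, position trend, array weights, blocks and samples. Proliferative zone arrays were not analysed here.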

Additional observations from a re-analysis of the deposited data

Results flagged for a closer look

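The effects of the Schmid and Cog genotypes, each against its own wildtype, differed for 3 member probes and 15 genes of the wider lists at an adjusted p of 0.05 or less (limma, difference of the 2 contrasts), and 11 of the 15 had been called in a mutant and are given here. At the adjusted p alone no share over all probes is given, so these counts are not read as an excess. Past both limits, 7 of the 72 wider genes lay below and 4 above at their brightest probe. Over all probes, not only the brightest of each gene, 5.88% lay below, and no share is given for those above. These 2 counts are not read as an excess either. A negative value means that the Schmid effect lay below the Cog effect. The members were Mgp (-3.48), Akp2 (-2.0) and Smpd3 probe 1 (-1.60), and no other Smpd3 probe passed this test. In phosphate and pyrophosphate handling the genes were Akp5 (-2.01), Enpp2 (-1.49) and Entpd5 (2.43). In sphingomyelin and phosphocholine metabolism they were Smpd1 (1.47) and Pcyt1a (1.35). The others were Cyp27b1 (-1.87), Fgf23 (-1.42), Fgfr1 (-1.36), Pth1r (-0.99), Galnt3 (1.98) and Ucma (-2.07). Akp2 differed from wildtype by -1.11 in Schmid and 0.89 in Cog, and Entpd5 by 1.18 and -1.25. The other 4 of the 15 were Casr, Enpp3, Slc34a1 and Ahsg, named after their values were seen. Casr (-1.47, adjusted p of 0.0048) also passed the 2-fold limit, but was well above background on 0 of 3 Cog wildtype arrays. The other 3 were under 2-fold, as was Pth1r. For Ahsg, 0 of 3 arrays cleared background in each of the 4 groups, so its difference is not read as a change. Slc34a1 cleared background on 3 of 3 arrays of the Schmid wildtype, but on 0 of 3 Schmid, 0 of 3 Cog and 1 of 3 Cog wildtype arrays. None of the members and the 15 genes passed the test in Cog by itself. Slide and genotype cannot be told apart for any of them.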

How the results depend on the processing

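The Schmid calls of Mgp and Smpd3 probe 1 held in all 23 alternatives and that of Akp2 in 18, and Akp2 kept its direction in all. Besides the omissions of single arrays, Akp2 was lost with array weights (-0.93, under 2-fold) and with scan day as a block (-1.09, adjusted p of 0.058), which equals leaving out wildtype replicate 3 of the Schmid background. Scan day was added after seeing the data. The difference between the mutants at Smpd3 probe 1 was lost with both scalings to the 75th percentile (-1.72 and -1.45, adjusted p of 0.083 and 0.056). Those scalings shifted the median of all probes in Schmid from -0.06 to -0.40 (processed signal) and -0.35 (normexp), and in Cog from 0 to 0.43 and 0.01. The Schmid split over all probes was 2380 higher and 1930 lower as reported, 2979 and 4029 and 2569 and 3455 with these scalings, and 2888 and 3984 with the processed signal, quantile normalized. The Cog split was 644 and 308 as reported, 276 and 85 with processed signals centred on each array's 75th percentile, 1111 and 1002 with array weights, 1014 and 545 with quantile normalized processed signals, 988 and 654 with slide as a random block, and 364 and 133 with own groups only. The causes were not tested.

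Member probes called in Schmid, 0 higher and 3 lower, became 1 higher and 6 lower with the processed signal, quantile normalized, and with the trend over array rows removed, and 1 higher with processed signals centred on each array's 75th percentile, where Slc20a1 probe 1 was called in each. With array weights 1 member was higher in Cog (Akp2) and 1 in the difference between the mutants (Ank). Omitting 1 array gave 0 to 1 higher and 2 to 4 lower in Schmid, 0 to 1 higher in Cog, and 0 to 1 higher and 3 to 4 lower in the difference. The extra calls were Ank, Enpp1 and Smpd3 probes 2 and 3 in Schmid, Akp2 in Cog, and Ank and Enpp1 in the difference.

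In the wider lists, 11 genes lower in Schmid became 18 and 17 with the processed signal and normexp at the 75th percentile, and 9 higher became 4 with scan day as a block. In Cog, 1 gene lower became 0 with both processed signals and with the row trend removed, 2 with normexp at the 75th percentile, 3 with array weights and 5 with slide as a random block, and 1 gene higher became 2 under array weights and under quantile normalized processed signals, and 0 with own groups only (6 arrays). Omitting 1 array gave 4 to 11 higher and 9 to 12 lower in Schmid, with 4 without wildtype replicate 3 and 5 without Schmid replicate 1 or wildtype replicate 2, and 1 higher and 0 to 2 lower in Cog.

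No called value changed sign. Uncalled signs turned as follows. With the processed signal at the 75th percentile, Phospho1 was -0.24 in the difference, Mgp -0.19 in Cog and Slc20a2 probe 1 -0.17 in Schmid. Quantile normalized, it gave Phospho1 -0.02 in the difference, Enpp1 0.16 in Cog and Slc20a2 probe 1 -0.01 in Schmid. Normexp at the 75th percentile gave Phospho1 -0.19, Mgp -0.15, Slc20a2 probe 1 -0.29 and Slc20a1 probe 2 0.05 in Schmid. The row trend gave Slc20a2 probe 1 -0.08. Array weights gave Mgp -0.11 in Cog, Slc20a2 probe 1 -0.03 and Slc20a1 probe 2 -0.06 in the difference, and scan day gave Slc20a1 probe 2 0.23 in Schmid. Over omissions of 1 array, Slc20a2 probe 1 ran from -0.06 to 0.19 and Slc20a1 probe 2 from -0.53 to 0.23 in Schmid, Mgp from -0.27 to 0.35 in Cog, and Slc20a1 probe 2 from -0.16 to 0.60 and Smpd3 probe 2 from -0.51 to 0.04 in the difference.

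With group means removed, correlations by replicate number cannot settle pairing. They were 0.066 to 0.193 (Schmid, wildtype), -0.116 to 0.072 (Cog, wildtype) and 0.046 to 0.407 between the wildtype groups. With the replicate number as a block, 0 member probes were higher and 3 lower in Schmid and 0 changed in Cog, as without it, and 2403 and 1975 of all probes were called in Schmid and 586 and 301 in Cog. Among the named genes the block ended the calls of Ucma (-2.07, adjusted p just above the limit at 0.050) and Enpp2 (-1.49, 0.056) in the difference between the mutants and changed no other. Slide as a random block had a consensus correlation of -0.122. The filter on dim probes left out Slc20a2 probe 2, and fitting own groups only gives no difference between mutants.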
